A study of Mus musculus with 6 samples.

Results

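The genes described are those that encode the proteins of the large subunit of the cytosolic ribosome, together with their named paralogs. They are all rows of the deposited gene table whose symbol is Rpl with a number (with an optional a, l, x or y and paralog ending) or Rplp0, Rplp1 or Rplp2, with pseudogene rows left out. This gave 52 of 23725 genes. The rule uses the symbol and no measured value, though the members were chosen with earlier results of these data known.

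RNA was measured in regulatory T cells (Tregs), a class of CD4 T cell that holds immune responses in check. The cells came from lymph nodes, and the C57Bl/6 mice had been immunised against MOG, myelin oligodendrocyte glycoprotein, a protein of the myelin sheath. The WT group (3 libraries) came from mice that carry MOG as a self protein, and the MOG KO group (3 libraries) from mice that lack it in the whole animal. Both groups were immunised, and each library was made from the RNA of 500 cells. The comparison asks how Tregs differ between a host that has the antigen and one that does not.

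The large subunit holds the catalytic centre in which amino acids are joined, a tunnel through which the new chain leaves, and a flexible stalk that recruits translation factors. Its proteins are made in near-equal numbers, and their messages begin with a run of pyrimidines, the terminal oligopyrimidine (TOP) tract, through which the kinase mTOR adjusts their translation. Activated T cells make many ribosomes before they divide. Several of the proteins also act in signalling, above all Rpl5 and Rpl11, which bind Mdm2 and so stabilise p53 when ribosome assembly fails.

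Gene counts totalled 2717969 to 4472549 per library. Treg markers were read: Il2ra, Ctla4, Ikzf2, Cd4, Cd3e and Cd3d were present, at 10 reads-per-million (RPM) or more, in all 6 libraries. Foxp3 had 326 to 690 RPM in 5 libraries and 8.22 RPM in WT replicate 3, and Cd3g 1.42 RPM in WT replicate 3. Ctla4 and Cd4 were also lowest there, at 74.3 RPM against 450 to 612 RPM and at 170 RPM against 419 to 722 RPM. Cd8a, Cd8b1 and all 4 natural killer cell markers had 0 counts. The summed RPM of 6 B cell genes ranged from 2.21 to 206 in WT and 0 to 131 in MOG KO with Cd79a and Pax5 at 0 in every library, that of 8 myeloid genes from 29.1 to 180 and 15.4 to 310, that of 5 erythroid genes from 69.7 to 151 and 20.6 to 67.5, and that of 7 stromal genes from 2.27 to 97.1 and 31.6 to 461 with Pdpn and Ccl19 at 0. Their part in the results was not tested. Mog itself had 1 count over all 6 libraries, so it does not check the genotype labels. The number of genes present was 2701 in WT replicate 3 and 3265 to 4440 in the others.

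Promoter sequences from RefSeq (GRCm38.p6) matched 40 of the 52 genes, with 47 annotated starts. Genes without one include Rpl17, Rpl21, Rpl23a, Rpl29, Rpl3, Rpl30, Rpl32, Rpl36, Rpl7, Rpl8 and Rplp1. A run of at least 8 pyrimidines (C or T) between 25 bases before and 50 bases after the start was found in 74.5% of the 47 promoters, in 25.9% of 4250 promoters of genes tested in this comparison and in 27.2% of all 32851 promoters in the table. A run of at least 5 that covered the first base itself was found in 25.5%, 9.39% and 10.1%. The run is the feature most of these genes share by sequence and that the symbol rule did not use. The windows that follow are 30 bases each, 5′ to 3′ on the strand of the gene, with the longest pyrimidine run near the start in capitals. The first 5 belong to genes that were at or near 0 in WT replicate 3, the next 3 to genes read in every library, and the last 3 to paralogs.
Rpl10a: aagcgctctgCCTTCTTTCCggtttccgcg
Rpl12: ggaggaggcaacggtgcaaCTTTCTTCggt
Rpl14: agggcgggCCCTCTCTCTTCTCgctgagcg
Rpl34: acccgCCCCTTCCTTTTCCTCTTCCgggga
Rpl35a: ggggcttgCCTTCCTCTTTCCgccatcttg
Rpl4: agcgtggCCTTCTCCTCTCCCCgtcatggt
Rpl38: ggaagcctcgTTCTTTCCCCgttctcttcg
Rplp0: ggaccgcctggTTCTCCTataaaaggcaca
Rpl7l1: aCCCCgcccggtgaggctgcgcaagcgcag
Rpl22l1: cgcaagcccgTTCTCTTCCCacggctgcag
Rpl36al: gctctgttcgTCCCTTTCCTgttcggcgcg

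The longest run had 8 to 20 bases in the 5 genes that were low in WT replicate 3, and 15, 10 and 7 bases in Rpl4, Rpl38 and Rplp0, so both kinds of gene carry a run. Rpl7l1 had no run above 4 bases in this window, and Rpl22l1 and Rpl36al had runs of 10 bases each. With the annotated start as base 1, the run began at base 18 in Rpl10a, 40 in Rpl12, 25 in Rpl35a and 27 in Rpl4. It began at base 12 in Rplp0, 2 in Rpl22l1 and 29 in Rpl36al. Only in Rpl14, Rpl34 and Rpl38 did it cover this start, so elsewhere the capitals do not mark a run at this start. For Rpl35a another annotated start lies within the run. The windows lie at chr17:28328572-28328601 (Rpl10a), chr2:32961732-32961761 (Rpl12), chr9:120571501-120571530 (Rpl14), chr3:130730330-130730359 (Rpl34, minus strand), chr16:33056469-33056498 (Rpl35a), chr9:64173406-64173435 (Rpl4), chr11:114668568-114668597 (Rpl38), chr5:115559467-115559496 (Rplp0), chr17:46782652-46782681 (Rpl7l1, minus strand), chr3:28805499-28805528 (Rpl22l1) and chr12:69184020-69184049 (Rpl36al, minus strand). Start sites are the annotated ones and were not measured here.

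3 more motifs were searched on both strands of the 300-base promoters, and none of them contains another. CCGGAA, the core of sites for ETS factors such as GABP, was in 44.7% of the 47 promoters, 30.8% of those of genes tested and 14.9% of all. AAGATGGC, a YY1-type sequence, was in 12.8%, 5.06% and 2.75%. GGGCGG, the core of GC boxes, was in 63.8%, 64.9% and 35.7%, so here the large subunit promoters lay close to those of the other genes tested. The promoters of small subunit genes had 51.7% with CCGGAA and 58.6% with a run of at least 8 pyrimidines. A match describes the letters and shows no binding.

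Most of the large subunit genes were read in every library, and a few were lost from single libraries. 39 of 52 were present in all 6 libraries, where 8.9% of the 7909 genes present in any library were. 5 were present in 5 libraries, 5 in 1 to 4 libraries and 3 in none. Leaving out WT replicate 3 raised the number present in all libraries to 43. In bulk RNA, fewer cells of a type and less RNA per cell cannot be told apart.

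The losses in WT replicate 3 were near complete. Rpl10a, which forms the stalk near the exit of spent tRNA, had 160, 198 and 1.13 RPM in WT replicates 1, 2 and 3 and 226, 327 and 272 RPM in MOG KO replicates 1, 2 and 3 (the order used below). Rpl14 had 216, 270 and 1.13 RPM in the WT libraries and 272, 310 and 283 RPM in the MOG KO libraries. Rpl35a, mutated in some families with Diamond-Blackfan anaemia, had 55.9, 74.9 and 0.85 RPM and 133, 59.2 and 60.9 RPM. In all of these WT replicate 3 stood alone, at 3 or 4 counts, while the other 5 libraries had at least 55.9 RPM. Rpl12, a protein at the base of the stalk, had 39.7, 164 and 0.567 RPM in the WT libraries and 163, 61.7 and 298 RPM in the MOG KO libraries. Rpl34 had 4.78, 110 and 0.283 RPM in the WT libraries and 95, 54.8 and 138 RPM in the MOG KO libraries, so it was low in WT replicate 1 as well.

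The same library was not low in large subunit genes as a whole. WT replicate 3 held the highest RPM of the 6 libraries for 12 genes, Rplp0, Rplp2, Rpl6, Rpl7a, Rpl8, Rpl13, Rpl18, Rpl30, Rpl32, Rpl35, Rpl36al and Rpl41, and the lowest for 10. WT replicate 1 was the lowest for 27 genes and the highest for 2. Rpl29 had 49.3 RPM there against 313 to 758 RPM in the other 5 libraries, and Rpl35 26.5 RPM against 211 to 298 RPM. WT replicate 1 thus had mostly low levels, and WT replicate 3 a mix of high and near-absent genes.

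**Figure D1:**
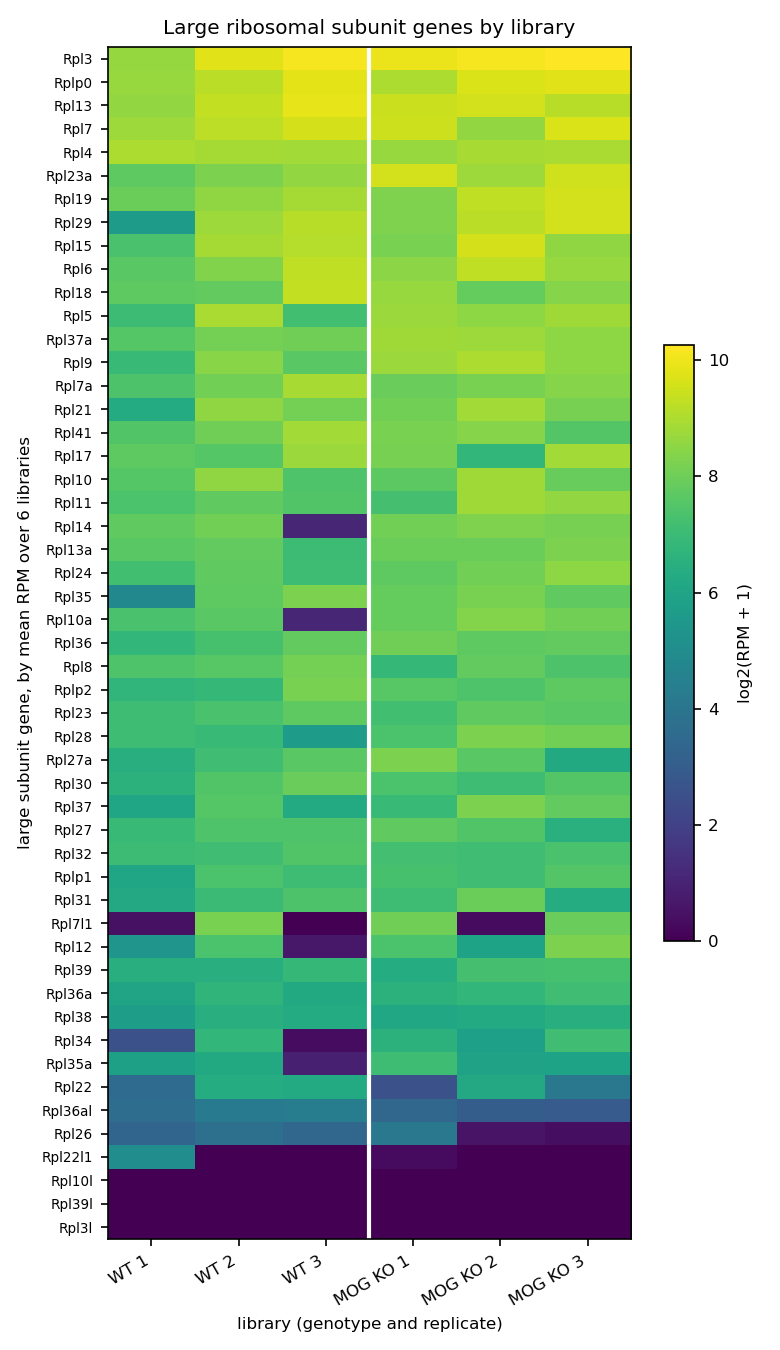
Each row is 1 of 51 large subunit genes, ordered by its mean RPM, each column a library, and the colour is log2(RPM + 1), with WT left of the white line. Most rows are of even colour, while Rpl14, Rpl10a, Rpl12, Rpl34 and Rpl35a are dark in WT replicate 3 alone or nearly so, and Rpl3l, Rpl10l and Rpl39l are dark in every library.

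The genes differed widely in how evenly they were read. The coefficient of variation (CV, the SD over the mean of RPM over 6 libraries) had a median of 42.7% over the 48 large subunit genes that passed the low-count filter. Over all 4088 genes that passed this filter it was 111%. It was 44.1% over the 704 genes of the series present in all libraries, large subunit genes included. Over the 39 large subunit genes among them it was 38.3%. The large subunit genes were thus more even than the genes tested as a whole, and close to the genes present everywhere. Small subunit genes had a median of 42.8% over 31 genes. Within WT the median CV was 42.4%, and within MOG KO 28.7%.

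The most even gene was Rpl4, which lines the exit tunnel, with 506, 466 and 456 RPM in the WT libraries and 414, 481 and 496 RPM in the MOG KO libraries (CV 7.03%). Rpl32 followed, with 131, 138 and 177 RPM and 147, 139 and 160 RPM (CV 11.4%). Rpl38, a small protein needed for translation of some Hox messages, had 53.7, 88.3 and 77.9 RPM and 69.6, 75.9 and 87.5 RPM (CV 17%). For all of these the genotypes overlapped, and no library stood apart. The least even were Rpl7l1 (CV 110%), Rpl12 (90.1%) and Rpl34 (84.6%).

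Levels between genes were compared per length, as RPM per kilobase (kb) of transcript. The median of the 48 genes was 251 RPM per kb. Among the 3 highest, Rpl13 had 836 ± 352 RPM per kb in WT and 862 ± 115 in MOG KO (mean ± SD, n = 3 per group), and Rpl23a, at the rim of the tunnel, 537 ± 161 and 1140 ± 314. Rpl13 and Rpl23a changed places between the genotypes and did not differ beyond their SD. The lowest were Rpl26 (18.6 ± 3.77 and 9.97 ± 16.1 RPM per kb), Rpl36al (21.7 ± 5.41 and 10.2 ± 2) and Rpl22 (27.5 ± 19.1 and 15.3 ± 17.9), which overlapped one another. With the union of all annotated exons as the length, Rpl36 took the place of Rpl13 among the top 3.

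**Figure D2:**
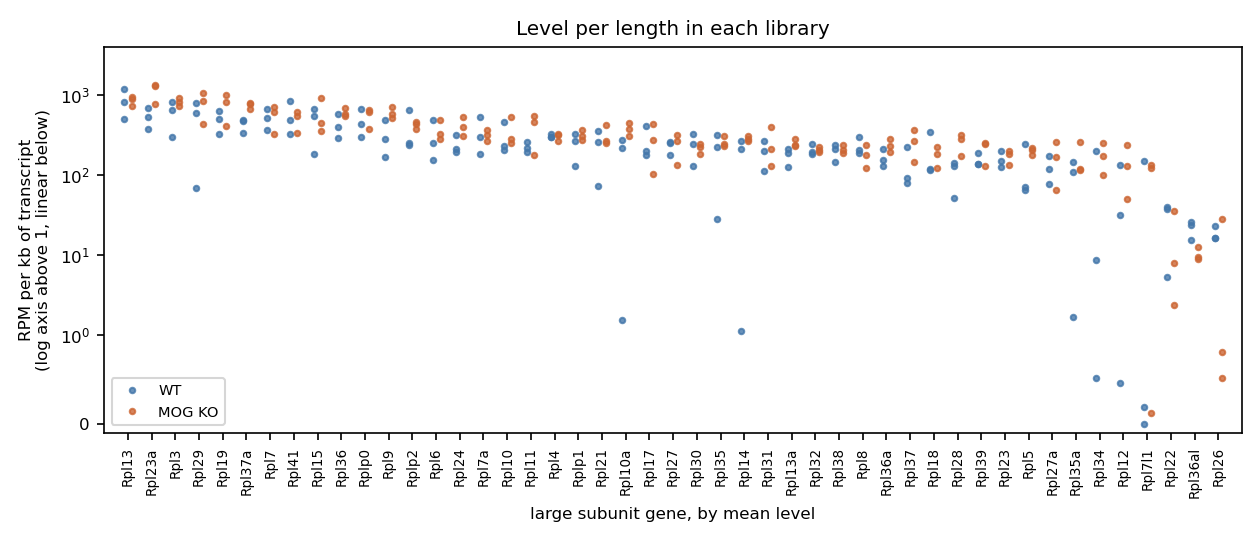
Each point is 1 library, at its RPM per kb of transcript, for 47 genes tested in order of mean level, with WT in blue and MOG KO in orange. Most genes lie between 100 and 1000 RPM per kb, and Rpl22, Rpl36al and Rpl26 close the order. Single WT points of Rpl10a, Rpl14, Rpl35a, Rpl34 and Rpl12 drop below 2. Points of Rpl7l1 in both genotypes and of Rpl26 in MOG KO do so too.

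These levels carry a limit of the method. Ribosomal protein genes have many near-identical processed copies in the genome, and how reads that match several places were counted is not given in the sources used here, so the level of a single gene is uncertain. Rpl26, a rim protein that also binds the p53 message, had 25, 58 and 33 counts in WT and 70, 2 and 1 counts in MOG KO. 2 of 3 pseudogene rows in the table had counts, and both had their lowest and their highest library in common with the parent gene. Rpl14-ps1 had 45.6, 127 and 0 RPM in the WT libraries and 97.5, 137 and 107 RPM in the MOG KO libraries, at 0 in the library where Rpl14 was near 0. Rpl31-ps12 had 15.8, 31.5 and 84.5 RPM and 42.5, 112 and 24.3 RPM, beside 71.4, 125 and 166 RPM and 134, 251 and 81.1 RPM for Rpl31.

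As a share of all gene counts, the 52 genes took 0.787%, 1.34% and 1.47% in WT and 1.44%, 1.7% and 1.84% in MOG KO, or 1.2% ± 0.363 and 1.66% ± 0.205 (SD, n = 3 per group). WT replicate 1 was the lowest, WT replicate 3 lay above MOG KO replicate 1, and the groups overlapped. The median RPM of the 48 tested genes was 132, 212 and 199 in WT and 236, 280 and 270 in MOG KO, where the groups did not overlap. Small subunit genes (33) took 0.505%, 0.928% and 0.933% in WT and 0.793%, 1.09% and 0.954% in MOG KO. The summed counts of the large over the small subunit gave ratios of 1.56, 1.44 and 1.58 in WT and 1.81, 1.56 and 1.93 in MOG KO, with MOG KO replicate 2 within the WT range. The TMM factors that scaled the libraries in the test were 1.06, 1.08 and 0.866 in WT and 1.05, 0.987 and 0.97 in MOG KO.

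**Figure D3:**
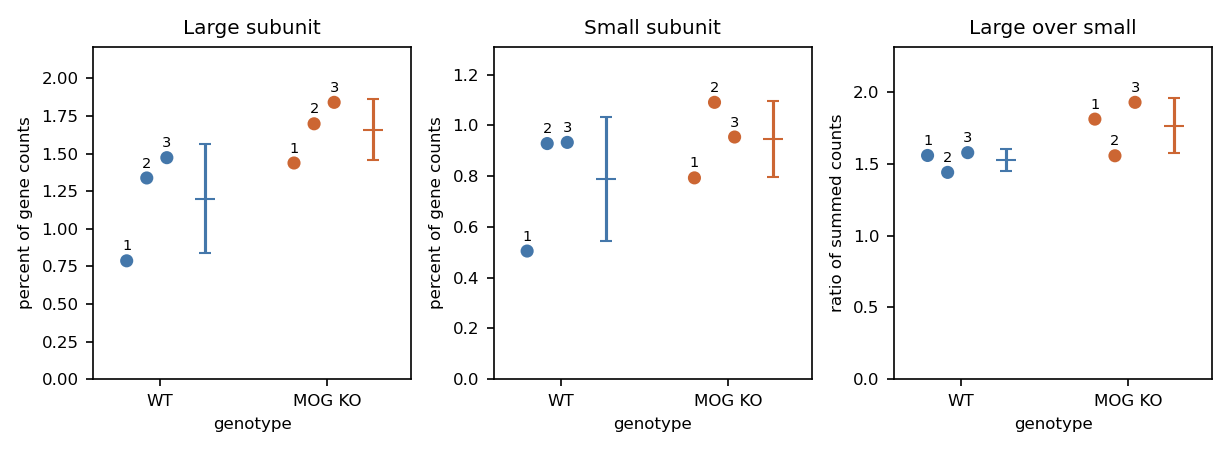
Points are libraries, numbered by replicate, and bars are mean ± SD (n = 3 per group), for the percent of gene counts in large subunit genes (left), in small subunit genes (middle) and the ratio of their summed counts (right). WT replicate 1 is the lowest for both subunits, at 0.787% and 0.505%, while its ratio of 1.56 lies within the range of the other libraries.

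Between genotypes, no large subunit gene passed the test. Of the 48 genes tested, 34 had positive log2 fold changes (MOG KO minus WT) and 14 negative, with a median of 0.35. Over all 4088 genes tested 52.1% were positive and the median was 0.06. At an adjusted p of 0.05 in edgeR, 0 of 48 passed, where 0% of all genes did. 1 of 48 had an unadjusted p under 0.05, where 5.11% of all genes did, so the share of large subunit genes was not above the background. Counting only genes higher in MOG KO, the number was 1 of 48, where 2.23% of all genes had such a p. Over the whole table edgeR called 0 genes, with 209 at an unadjusted p under 0.05, limma-voom called 0 and DESeq2 called 744. By DESeq2, which was run without the low-count filter of edgeR, 0 of 47 large subunit genes passed, where 8.52% of 8737 genes did. The SE of single genes had a median of 1.51 and reached 3.04 on the log2 scale. The 95% intervals of 47 genes held 0 and none lay within -1 to 1, so a 2-fold difference was within the interval of every gene.

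The counts depended on WT replicates 1 and 3. Without WT replicate 3, 43 of 48 genes were positive (median 0.61), and 5 were negative: Rpl4, Rpl8, Rpl22, Rpl26 and Rpl36al. Without WT replicate 1, 26 of 48 were positive and the median was 0.05. In no edgeR fit that left out a library did a large subunit gene pass.

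**Figure D4:**
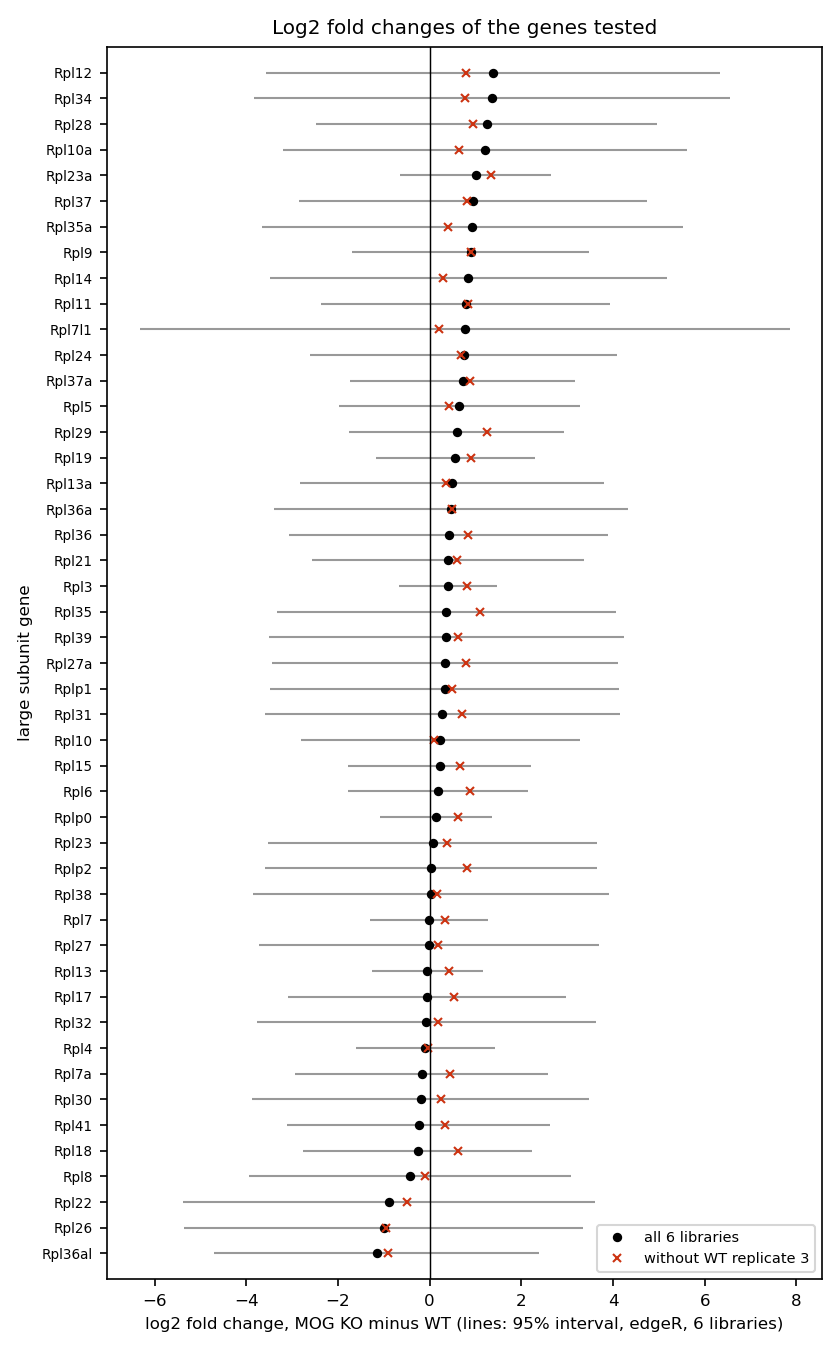
Points are log2 fold changes of 47 genes tested with 95% intervals (edgeR, 6 libraries), and crosses the values without WT replicate 3. All intervals drawn hold 0, and most crosses lie to the right of their points, except among genes such as Rpl12, Rpl34 and Rpl10a.

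Rpl23a (Entrez 268449, GRCm38 chromosome 11 from 78180932 to 78183584) lies at the rim of the tunnel, where the signal recognition particle docks. It had 210, 301 and 391 RPM in the WT libraries and 750, 436 and 730 RPM in the MOG KO libraries, so the groups did not overlap. Its log2 fold change was 1 ± 0.72 (SE, n = 3 per group), with an adjusted p of 1 in edgeR, and it overlaps Tlcd1 on the other strand. Rpl9 (Entrez 20005, chromosome 5 from 65388364 to 65391444), near the site where elongation factors bind, had 120, 350 and 201 RPM in the WT libraries and 416, 505 and 367 RPM in the MOG KO libraries (0.89 ± 1.12). Rpl28, which overlaps Ube2s, had 135, 123 and 48.5 RPM and 165, 299 and 269 RPM (1.24 ± 1.61). Here too every MOG KO library was above every WT library.

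In all, 8 of 48 genes had MOG KO libraries above every WT library, among them Rpl9, Rpl10a, Rpl13a, Rpl14, Rpl23a, Rpl28 and Rpl37a. Among all genes tested 5.97% did. 1 gene, Rpl36al, had the reverse, where 4.57% of all genes did. Rpl37a had 187, 276 and 262 RPM in the WT libraries and 445, 437 and 369 RPM in the MOG KO libraries, and Rpl13a, a protein of the interferon-induced GAIT complex, 197, 221 and 131 RPM and 245, 248 and 299 RPM. Without WT replicate 3, 15 genes had MOG KO above WT, where 9.96% of all genes did, and Rpl36al alone had WT above MOG KO, where 9.91% did. Of the 8 genes, 6 have a promoter in the RefSeq table. All 6 hold a run of at least 8 pyrimidines near the start and 2 of them CCGGAA. Among all 40 large subunit genes with a promoter, 33 hold such a run and 21 hold CCGGAA, so the run is common to most of them.

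Rpl3 and Rpl19 were also among the 6 positive genes of smallest unadjusted p. Rpl3, next to the catalytic centre, had 400, 887 and 1104 RPM in the WT libraries and 999.9, 1102 and 1230 RPM in the MOG KO libraries, a log2 fold change of 0.4 ± 0.46 with a 95% interval of -0.67 to 1.46. Its MOG KO libraries lay close together, and WT replicate 3 reached into their range. Rpl19, a protein of the tunnel rim, had 247, 372 and 473 RPM and 309, 622 and 757 RPM (0.56 ± 0.75).

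The stalk proteins, which hold translation factors to the ribosome, had positive values for all 4 genes over the 6 libraries with TMM scaling, while Rplp2 was -0.11 with DESeq2 size factors and Rplp0 and Rplp2 were -0.08 and -0.27 by DESeq2. Without WT replicate 1 they were -0.11 and -0.21, without MOG KO replicate 3 -0.011 and -0.05, and without WT replicate 2 Rplp2 was -0.19. Rplp0, the scaffold of the stalk, had 405, 590 and 917 RPM in the WT libraries and 517, 827 and 886 RPM in the MOG KO libraries (log2 fold change 0.14 ± 0.53). Rplp1 had 64.8, 165 and 133 RPM and 153, 138 and 183 RPM (0.32 ± 1.65), and Rplp2 108, 113 and 296 RPM and 193, 171 and 208 RPM (0.03 ± 1.57). The groups overlapped for each of them. WT replicate 3 was the highest library for Rplp0 and Rplp2 but not for Rplp1, their partner in the stalk. Rpl12, at the base of the stalk, had a log2 fold change of 1.38 ± 2.12, and it was 0.76 to 3.1 when single libraries were left out.

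Rpl5 and Rpl11, which bind 5S ribosomal RNA and Mdm2, did not move in parallel. Rpl5 (Entrez 100503670, chromosome 5 from 107900502 to 107909005) had 132, 495 and 144 RPM in the WT libraries and 418, 365 and 443 RPM in the MOG KO libraries (0.65 ± 1.14). WT replicate 2 was the highest library, and the other WT libraries lay below all MOG KO libraries. Rpl11 (Entrez 67025, chromosome 4 from 136028265 to 136053428) had 163, 214 and 179 RPM in the WT libraries and 151, 451 and 384 RPM in the MOG KO libraries (0.78 ± 1.37). Here MOG KO replicate 1 was the lowest library.

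Around the catalytic centre and the exit of spent tRNA, 3 of 4 genes were positive (Rpl3, Rpl10 and Rpl10a) and Rpl8 was negative. Rpl10, which joins the subunit late in its assembly, had 189, 376 and 171 RPM in the WT libraries and 206, 446 and 232 RPM in the MOG KO libraries (0.24 ± 1.32). Replicate 2 was the highest library in both genotypes. Rpl8 had 174, 192 and 279 RPM and 114, 224 and 166 RPM (-0.43 ± 1.52).

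Of the 10 genes of the exit tunnel and its rim, 6 were positive and 4 negative, with a median of 0.15 and a range of -1 to 1. Rpl39, a short protein of the tunnel wall, had 85, 85.2 and 115 RPM in the WT libraries and 80.2, 150 and 152 RPM in the MOG KO libraries (0.36 ± 1.68). Rpl17, another protein of the tunnel, had 212, 190 and 426 RPM and 286, 110 and 459 RPM (-0.05 ± 1.32), with replicate 2 the lowest in both genotypes. Of 5 genes that face the small subunit, 3 were positive and 2 negative (median 0.07). Among them Rpl41, the shortest ribosomal protein, had 179, 263 and 457 RPM and 296, 335 and 185 RPM (-0.24 ± 1.25). Of the 21 genes with no role assigned here, 15 were positive and 6 negative, from -0.26 to 1.35. Among these, Rpl18, which overlaps Sphk2, had 209, 219 and 642 RPM in the WT libraries and 411, 225 and 336 RPM in the MOG KO libraries (-0.26 ± 1.09), with WT replicate 3 apart from the rest. Rpl7 had 427, 600 and 787 RPM and 709, 382 and 816 RPM (-0.01 ± 0.55), and Rpl13 387, 635 and 935 RPM and 695, 748 and 573 RPM (-0.05 ± 0.52). With library totals alone the values of Rpl7, Rpl13 and Rpl17 turned to 0.03, 0.0077 and 0.0070. That of Rpl17 was 0.52 without WT replicate 3 and 0.32 without MOG KO replicate 2.

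The paralogs are copies of large subunit genes with their own symbol. Rpl3l, a muscle form of Rpl3, and Rpl10l and Rpl39l, testis forms of Rpl10 and Rpl39, had 0 counts in all 6 libraries. This allows an Rpl3l share of the Rpl3 pair of up to 0.0134%, an Rpl10l share of the Rpl10 pair of up to 0.0466% and an Rpl39l share of the Rpl39 pair of up to 0.118% (3 counts over the group of 6 libraries). These limits cover counting error only. These genes and Rpl22l1 were the 4 that did not pass the low-count filter.

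Rpl36al encodes a protein nearly identical to that of Rpl36a. It lies on chromosome 12 from 69182731 to 69184083 (Entrez 66483), Rpl36a on chromosome X from 134585654 to 134588062 (Entrez 19982). Rpl36al had 11.8, 17.9 and 19.6 RPM in the WT libraries and 9.47, 7.11 and 6.67 RPM in the MOG KO libraries, a log2 fold change of -1.16 ± 1.53. Rpl36a had 62.2, 104 and 74.3 RPM in the WT libraries and 94.7, 111 and 137 RPM in the MOG KO libraries (0.47 ± 1.67). As a share of the counts of both, Rpl36al took 15.9%, 14.7% and 20.8% in WT and 9.09%, 6% and 4.63% in MOG KO. All WT libraries lay above all MOG KO libraries, and the means were 17.2% ± 3.25 and 6.57% ± 2.29 (SD, n = 3 per group). The exact two-sided permutation p was 0.1, the smallest that 3 against 3 can give, and 0.3 after adjustment over the 3 pairs tested. The difference of -10.6 percentage points stayed between -11.8 and -8.74 when single libraries were left out. Rpl36al shares its locus with the gene model Gm49383 on the same strand, so reads of both may be mixed.

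Rpl7l1, a relative of Rpl7, was read in full or not at all. It had 0.368, 296 and 0 RPM in the WT libraries and 260, 0.229 and 238 RPM in the MOG KO libraries. WT replicate 2 and MOG KO replicates 1 and 3 lay within 238 to 296 RPM, and the other 3 libraries had 0 or 1 count. Its share of the Rpl7 pair was 0.0861%, 33.1% and 0% in WT and 26.9%, 0.06% and 22.6% in MOG KO (exact permutation p = 0.9, adjusted 1), and the 2 states cut across the genotypes. The log2 fold change of 0.76 ± 3.04 had the largest SE of the 48 genes.

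Rpl22 was low in 3 libraries and high in 3, and Rpl22l1 had more than 1 count in 1 of the low ones. Rpl22, which binds RNA and is required for the development of alpha-beta T cells, had 11, 81.4 and 76.2 RPM in the WT libraries and 4.85, 73.1 and 16.2 RPM in the MOG KO libraries (-0.9 ± 1.94). Rpl22l1 had 86 counts in WT replicate 1 (31.6 RPM), 1 in MOG KO replicate 1 and 0 in the other 4 libraries. In WT replicate 1 it made up 74.1% of the counts of the pair (exact binomial 95% interval 65.2% to 81.8%, counting error only), and in the libraries with 0 counts the upper bounds were 1.01% to 6.38%. MOG KO replicates 1 and 3 also had low Rpl22, at 4.85 and 16.2 RPM beside 11 RPM in WT replicate 1, with 1 and 0 counts of Rpl22l1. The genotypes overlapped (exact permutation p = 1, adjusted 1).

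**Figure D5:**
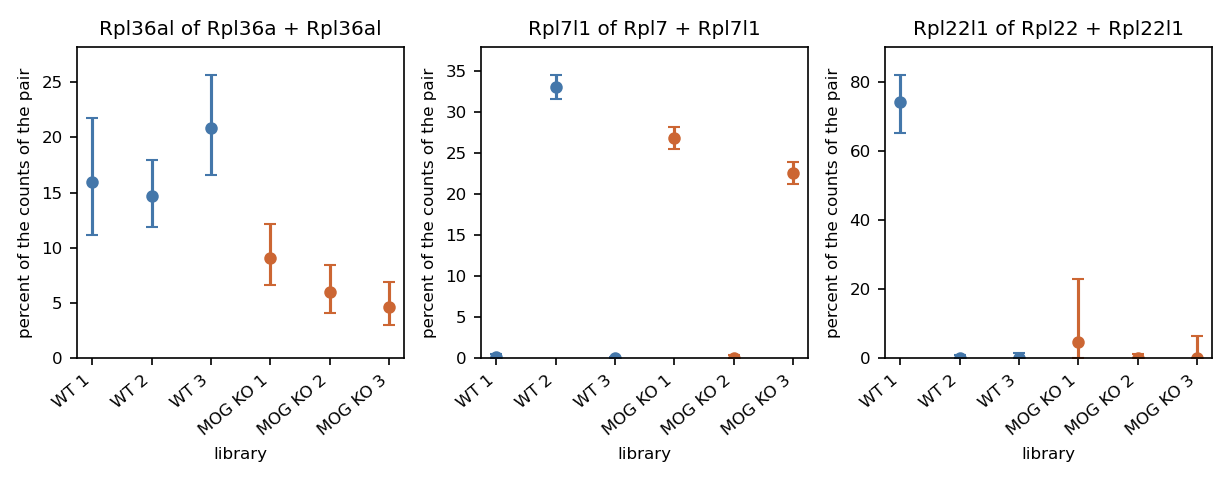
Each point is 1 library, at the percent of the counts of a pair that fell on the paralog, and bars are exact binomial 95% intervals (counting error only), with WT in blue and MOG KO in orange. For Rpl36al the WT points lie at 14.7% to 20.8% and the MOG KO points at 4.63% to 9.09%, while Rpl7l1 and Rpl22l1 are high in some libraries and near 0 in the others.

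Other genes of ribosome production had 0 members past the threshold, 0% as for all genes. Of 41 assembly factors of the large subunit in the table, 12 were tested, with 5 positive and 7 negative (median -0.38), and 1 was present in all 6 libraries: Npm1, a nucleolar chaperone, named after its values were seen. Senp3, a protease that prunes SUMO from assembly factors, had 0.736, 0.447 and 0 RPM in the WT libraries and 4.39, 37.1 and 343 RPM in the MOG KO libraries (unadjusted p = 0.0258, adjusted 0.74 in edgeR). Rsl1d1, a nucleolar protein, had 5.52, 1.79 and 0.85 RPM and 269, 0.917 and 171 RPM. Of 14 genes of RNA polymerase I and its factors, 4 were tested and all 4 were positive (median 1.39), with 0 present in all libraries. Ubtf, which opens ribosomal DNA for transcription, had 326, 143 and 2.27 RPM in the WT libraries and 725, 2.06 and 384 RPM in the MOG KO libraries, and Znrd1, a polymerase subunit, 0.368, 62.4 and 0.567 RPM and 0, 89.9 and 104 RPM.

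The messages that share the TOP tract without encoding ribosomal core proteins had 14 of 17 positive and 3 negative (median 0.15), and 12 were present in all 6 libraries. Eef1a1, the elongation factor that delivers tRNA, had 2404, 4496 and 4045 RPM in the WT libraries and 4423, 7482 and 5920 RPM in the MOG KO libraries, a log2 fold change of 0.64 ± 0.29 (unadjusted p = 0.0622, adjusted p = 1 in edgeR). Like the large subunit genes, it was lowest in WT replicate 1, and MOG KO replicate 1 lay below the highest WT library. Hnrnpa1, a splicing factor, had 3.68, 499 and 4.25 RPM and 464, 756 and 618 RPM (1.89 ± 1.79).

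Small subunit genes had 22 of 31 positive and 9 negative (median 0.38). Rps3a1 had 383, 651 and 259 RPM in the WT libraries and 580, 981 and 676 RPM in the MOG KO libraries (0.77 ± 0.58), and Rps2 505, 792 and 814 RPM and 634, 671 and 49.6 RPM (-0.73 ± 0.9), where MOG KO replicate 3 stood apart. The mitochondrial ribosome gave a different picture of detection: of 48 Mrpl genes, 14 were tested (9 positive, 5 negative), 0 were present in all 6 libraries and 14 in none. Mrpl10 had 0.736, 25.9 and 5.1 RPM in the WT libraries and 0, 3.44 and 0 RPM in the MOG KO libraries, and Mrpl15 82.8, 0.447 and 0.85 RPM and 203, 0.917 and 189 RPM.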

How the data were processed

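Gene counts in exons were deposited for 6 libraries. The deposited RPM values equal each count divided by its library total and rescaled to RPM, with differences under 1e-06. STAR 2.3.1, R 3.2.2 and genome build mm10 are named per the submitters' processing notes. The sources do not state everything: the counting tool, gene models, strand setting and rule for reads with several matches were not given in the sources used here. Reads of overlapping genes, on either strand, may therefore be mixed. Per the labels' protocols, RNA of 500 cells was amplified by 15 cycles of PCR, and no molecular identifiers are named. The labels do not say whether replicates are separate mice, so the p-values cover only the spread among these libraries, which may be technical.

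The test on counts used edgeR 4.0.16 under R 4.3.3 (filterByExpr, TMM, robust quasi-likelihood fit, genotype alone), which kept 4088 genes, with Benjamini-Hochberg adjustment over all of them and a threshold of 0.05. A log2 fold change is the MOG KO value minus the WT value, and the SE is the absolute log2 fold change over the square root of F, so it carries the spread that edgeR borrows across genes. DESeq2 1.42.0 and limma 3.58.1 were alternatives. The fitting step was tested on simulated data. Transcript length is the median of the principal coding transcripts in GENCODE M21 (GRCm38, the assembly that mm10 names), matched by Entrez identifier for all 52 genes. The search for pyrimidine runs of at least 8 bases and the choice of transcript length were added after seeing the data. Paralog shares were compared by exact two-sided permutation where each library had at least 20 counts in the pair.

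The members and lists were chosen with earlier results of these data known. Genes named with values are the stalk genes, Rpl5, Rpl11 and the 6 paralog pairs, up to 6 per direction of smallest unadjusted p, the 3 highest and 3 lowest by level per length and by CV, 2 of smallest p in each other list, and the 5 other genes of most alike profile. Others were named after their values were seen: Rpl17, the genes low in WT replicate 1 or 3, and those whose groups did not overlap. 1 gene enters the counts and medians but its own values are not reported here.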

Additional observations from a re-analysis of the deposited data

How the results depend on the processing

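Each alternative kept the count of large subunit genes past the threshold at 0. DESeq2 called 744 genes over the whole table. The number of positive genes was 28 to 39 under other scalings, filters and tools, and 26 to 43 when single libraries were left out. The median was 0.20 to 0.44 in the former and 0.05 to 0.61 in the latter. The share of counts was higher in MOG KO by 0.46 percentage points, by 0.253 to 0.597 when single libraries were left out, and by 0.488 when Malat1, mitochondrial genes and the 10 most abundant genes were left out of the total. The number of genes present in all libraries was 39 at 10 RPM, 41 at 3 RPM and 38 at 30 RPM.

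Of 29 large subunit genes followed through the fits, 18 kept their sign in each fit that is tabulated for them. For Rpl7l1 DESeq2 gave a log2 fold change of 1.18 but no p-value. Rpl26 and Rpl36al were not in the fit with at least 50 counts. The other genes of the 29 changed sign in some fit. In the main edgeR fit their values ran from -0.26 (Rpl18) to 0.24 (Rpl10). With library totals alone, Rpl7 was 0.028, Rpl13 0.0077 and Rpl17 0.0070. With limma-voom Rpl13 was 0.074, Rpl18 0.094 and Rpl38 -0.012. With limma on log2(RPM + 1), Rpl7 was 0.043, Rpl13 0.13, Rpl18 0.026 and Rpl32 0.015. With DESeq2 Rplp0 was -0.081, Rplp2 -0.27 and Rpl38 -0.084, and with DESeq2 size factors in edgeR Rplp2 was -0.11. The cause was not tested. When single libraries were left out, signs also changed within ranges of -0.19 to 0.65 (Rpl10), -0.31 to 0.43 (Rpl13), -0.61 to 0.52 (Rpl17), -0.52 to 0.62 (Rpl18), -0.16 to 0.18 (Rpl32), -0.16 to 0.16 (Rpl38), -0.14 to 0.018 (Rpl4), -0.49 to 0.33 (Rpl41), -0.25 to 0.33 (Rpl7), -0.11 to 0.61 (Rplp0) and -0.21 to 0.81 (Rplp2). The share of Rpl7l1 differed by 5.46 percentage points, and by -0.0623 to 16.5 without single libraries. That of Rpl22l1 differed by -23.2, and by -35.6 to 1.52 without single libraries, since WT replicate 1 holds 86 of its 87 counts.

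Whether replicate numbers pair the samples could not be settled. The deviations of same-numbered libraries from their group means correlated at -0.02, 0 and -0.02 over genes, and no library correlated best with its own number. The values of all combinations lay within -0.022 to 0.037, too close together for this check to decide. With the replicate block, 0 genes passed, 35 of 48 large subunit genes were positive (median 0.39), Rpl13 was 0.072, and no call changed. Rpl26 and Rpl22l1 had few counts in several libraries, where 1 count is 0.224 to 0.368 RPM. Rpl22l1 had 86 counts in WT replicate 1, the library of lowest total, and 0 in WT replicate 2, that of highest total. The part of depth was not tested.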

Other observations

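Among 589 genes outside both subunits with a mean of at least 100 RPM and at least 10 RPM in every library, Clta, Myl12a, Tsc22d3, Gpi1 and H2-K2 had the profile over the 6 libraries most like that of the large subunit genes. Likeness was Pearson's r of log2 RPM with the median profile of the 48 tested genes, 0.990 for Clta and 0.962 for H2-K2, given as a description over 6 libraries of unequal depth. Clta, a clathrin light chain, was read at 17.7 RPM in WT replicate 1, against 144 to 281 RPM in the other 5 libraries. Tsc22d3, a glucocorticoid-induced gene also known as Gilz, was read at 10.7 RPM there, against 266 to 404 RPM elsewhere. All 5 genes had their lowest value in WT replicate 1, the library with the lowest share of large subunit counts. They were picked by likeness to a profile that is itself lowest there, so this follows largely from the choice. H2-K2 has near-identical relatives in the same gene family, so its level is uncertain.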
